A study of Mus musculus with 24 samples.

Results

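Cytosolic heat shock proteins are described here in the sciatic nerve of mice with and without a myelin protein mutation. The 10 genes are Hspa1a, Hspa1b, Hspa8, Hsph1, Dnajb1, Hsp90aa1, Hspb1, Hspb8, Cryab and Bag3. They were taken by symbol, as chaperones of the HSF1 programme, and all 24 probe sets annotated to one of these symbols alone were used, out of 22690 probe sets on the array. The whole table holds 12393 genes with a probe set of a single symbol. All 10 were measured, and no filter on low values was applied. The members were chosen by their differences between S63del and WT nerves as well as by name, so that comparison is given as levels and differences with no test, and the tests rest on the other comparisons.

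S63del mice carry a mutant form of P0, the main adhesion protein of peripheral myelin, which lacks a serine and models Charcot-Marie-Tooth neuropathy type 1B. Chop null mice lack Chop, a transcription factor of the unfolded protein response encoded by Ddit3, and S63del/Chop null mice carry the mutation and lack Chop. The 4 genotypes were WT, Chop null, S63del and S63del/Chop null, each taken at postnatal day 5 (P5), at P28 and at 4 months with 2 arrays per group, 24 arrays in all. The ages were chosen for the onset of myelination, its peak, and a stage when removal of Chop had improved the disease. Nerves were stripped of the perineurial sheath before RNA was extracted. The labels call the arrays of a group biological replicates and do not say how many animals each array holds, so p-values measure the spread between these samples only. The labels name the alleles without the construct, the promoter or the sex of the animals. Nerves of S63del and S63del/Chop null mice are called mutant nerves below, and those of WT and Chop null mice non-mutant nerves.

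Heat shock proteins bind unfolded proteins in the cytosol and keep them from aggregating until they can be refolded or degraded. HSP70 (Hspa1a and Hspa1b when induced, Hspa8 when constitutive) works in cycles that J-domain proteins start and exchange factors end. Small heat shock proteins hold unfolded clients without using ATP. The transcription factor HSF1 binds heat shock elements in promoters, which are inverted repeats of the triplet GAA, and drives the inducible genes when unfolded proteins accumulate in the cytosol. The unfolded protein response, of which Chop is a part, senses unfolded proteins inside the endoplasmic reticulum (ER), where P0 is made. Hspb1 and Hspb8 are known from inherited motor neuropathies, in which they carry mutations.

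The promoters of the genes that moved most are shown for the letters of a heat shock element they hold. Promoter sequences from RefSeq (GRCm38.p6) were matched for 7 of the 10 genes, Hspa1a, Hspa1b, Hspb1, Hspb8, Hsph1, Dnajb1 and Bag3. A pair of facing triplets, GAANNTTC or TTCNNGAA, was searched in the 250 bases before each annotated start. Both strands are covered, because each motif is its own reverse complement. It was found in 4 of these genes, Hspa1a, Hspa1b, Hspb1 and Hsph1, and in 14.55% of 27025 genes with a promoter in the table. The longer form of 3 triplets, GAANNTTCNNGAA or TTCNNGAANNTTC, was found in none of the 7, against 0.514% of all genes. Each sequence below runs 5′ to 3′ along the gene's strand for 60 bases, and capitals mark the motif. Hspa1a and Hspa1b lie on the minus strand and are shown from 120 to 61 bases before the start, and Hspb1 on the plus strand from 130 to 71 bases before it.
Hspa1a, chr17:34972217-34972276: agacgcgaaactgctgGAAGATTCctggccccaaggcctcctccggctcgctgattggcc
Hspa1b, chr17:34959299-34959358: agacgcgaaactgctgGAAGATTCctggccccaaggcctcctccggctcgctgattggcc
Hspb1, chr5:135887789-135887848: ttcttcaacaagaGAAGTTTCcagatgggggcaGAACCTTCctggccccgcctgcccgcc
Hspb1 holds the motif at 2 places within this stretch. The Hspa1a and Hspa1b stretches are the same at 60 of 60 bases, and the 250 bases before each start are the same at 247 positions. The 2 genes are near-identical copies, Hspa1a at chr17:34969359-34972156 and Hspa1b at chr17:34956429-34959238, and their probe sets may share signal, so the split between them is uncertain. These matches describe letters in a window and show no binding.

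Ddit3, the gene removed in the Chop null mice, was read in every array. At P5 the WT arrays read 7.66 and 7.61 and the S63del arrays 9.59 and 9.52 on the log2 scale. In the 12 arrays labelled Chop null or S63del/Chop null it lay between 6.60 and 7.37, below every array with Chop intact (7.61 to 9.59). No array went against its label. The Chop null pair at P28 stood apart, with a replicate SD of 0.394 over all genes against 0.123 to 0.228 in the other groups, and every P28 result against Chop null rests on it. Values are log2 expression per probe set, so a difference of 1 is a doubling. Levels of different probe sets are not compared, since each has its own binding. In bulk tissue, fewer cells of a type and less RNA per cell cannot be told apart.

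At P5 the inducible HSP70 genes and Hspb1 were more than 10-fold higher in mutant than in non-mutant nerves, and other members were higher by smaller amounts. In S63del/Chop null against Chop null nerves, on arrays that the S63del against WT difference did not use, 7 of the 10 genes rose past an adjusted p of 0.05 (limma, Benjamini-Hochberg over 12393 genes), when 1.78% of all genes were called and 0.904% were called higher. The 7 were Hspa1a, Hspa1b, Hsph1, Dnajb1, Hsp90aa1, Hspb1 and Hspb8. Both mutant arrays lay above both controls for all 10 genes, which was so of 25% of all genes. The median difference of the 10 was 0.93, beside -0.0012 over all genes. The differences ranged from 5.32 for Hspa1a to 0.11 for Cryab.

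Hspa1a, the heat-inducible HSP70, changed most. Its log2 values at P5 were 5.96 and 5.93 for WT, 5.69 and 5.99 for Chop null, 11.21 and 11.10 for S63del and 11.27 and 11.05 for S63del/Chop null nerves. The 4 non-mutant arrays were close together and the 4 mutant arrays lay about as close together far above them. The S63del/Chop null nerves were 5.32 ± 0.30 (SE) higher than Chop null nerves, a 39.9-fold difference with a limma adjusted p of 8.94e-09. S63del nerves stood 5.21 ± 0.30 above WT nerves, given without a test. Hspa1b, its near-identical copy, read 8.43 and 8.39 for WT, 8.31 and 8.30 for Chop null, 11.98 and 11.94 for S63del and 12.02 and 11.89 for S63del/Chop null nerves. It rose by 3.65 ± 0.29, or 12.5-fold, in S63del/Chop null nerves (limma adjusted p = 8.63e-07). The probe sets of both inducible copies were thus high in all 4 mutant arrays. They may share signal, so the split between the copies is uncertain.

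The constitutive HSP70 and the partners of the HSP70 cycle moved less. Hspa8, the HSP70 present in unstressed cells, read 13.15 and 13.18 for WT, 13.20 and 13.18 for Chop null, 13.50 and 13.39 for S63del and 13.51 and 13.41 for S63del/Chop null nerves. Its mutant arrays lay above the others, but the difference of 0.27 ± 0.12 did not pass the test (limma adjusted p = 0.479). Hsph1, an HSP110 that exchanges nucleotide on HSP70, read 8.89 and 8.79 for WT, 8.86 and 8.89 for Chop null, 10.08 and 9.91 for S63del and 10.01 and 9.98 for S63del/Chop null nerves. It rose by 1.12 ± 0.24 (limma adjusted p = 0.021). Dnajb1, a J-domain protein that starts the HSP70 cycle, read 9.68 and 9.72 for WT, 9.70 and 9.68 for Chop null, 10.35 and 10.23 for S63del and 10.37 and 10.25 for S63del/Chop null nerves. It rose by 0.62 ± 0.11 (limma adjusted p = 0.00341), with little spread inside any group. Bag3, a cochaperone that links HSP70 and Hspb8 to autophagy, read 8.22 and 8.34 for WT, 8.19 and 8.33 for Chop null, 8.86 and 8.66 for S63del and 8.93 and 8.67 for S63del/Chop null nerves. The Bag3 difference of 0.54 ± 0.15 did not pass (limma adjusted p = 0.109), although the groups did not overlap.

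Hsp90aa1 is the inducible cytosolic HSP90, which completes the folding of kinases and receptors. It read 11.55 and 11.51 for WT, 11.59 and 11.60 for Chop null, 12.34 and 12.28 for S63del and 12.40 and 12.29 for S63del/Chop null nerves. The rise of 0.75 ± 0.18 in S63del/Chop null nerves was just past the threshold (limma adjusted p = 0.0422).

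Among the small heat shock proteins, 2 of 3 rose at P5. Hspb1 (HSP27) read 9.12 and 9.28 for WT, 8.78 and 9.08 for Chop null, 12.79 and 12.58 for S63del and 12.88 and 12.50 for S63del/Chop null nerves. Its rise of 3.76 ± 0.16, or 13.6-fold, had the smallest adjusted p of the 10 (4.25e-10, limma). Hspb8 (HSP22), the partner of Bag3, read 6.03 and 6.51 for WT, 5.89 and 6.26 for Chop null, 8.11 and 7.92 for S63del and 8.09 and 7.81 for S63del/Chop null nerves. It rose by 1.88 ± 0.29, or 3.68-fold (limma adjusted p = 0.00112). Cryab (alpha-B crystallin) read 12.80 and 12.88 for WT, 12.85 and 12.87 for Chop null, 13.12 and 12.98 for S63del and 13.06 and 12.88 for S63del/Chop null nerves. Its difference was 0.11 ± 0.11, with a 95% interval of -0.13 to 0.34 (limma adjusted p = 0.999). Over all 24 arrays Cryab ranged from 12.75 to 13.22.

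The large P5 rises held with any 1 array removed, and the small ones did not. Hspa1a, Hspa1b, Hspb1 and Hspb8 kept their calls under all 13 other settings tried. With 1 of the 4 arrays of this comparison left out, 4 or 5 genes were called. The count was 4 without Chop null replicate 2 or without S63del/Chop null replicate 1. Hsph1 was lost in each of the 4 cases (adjusted p up to 0.187, limma), Hsp90aa1 likewise (up to 0.321), and Dnajb1 in the 2 cases named (up to 0.0716).

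**Figure D1:**
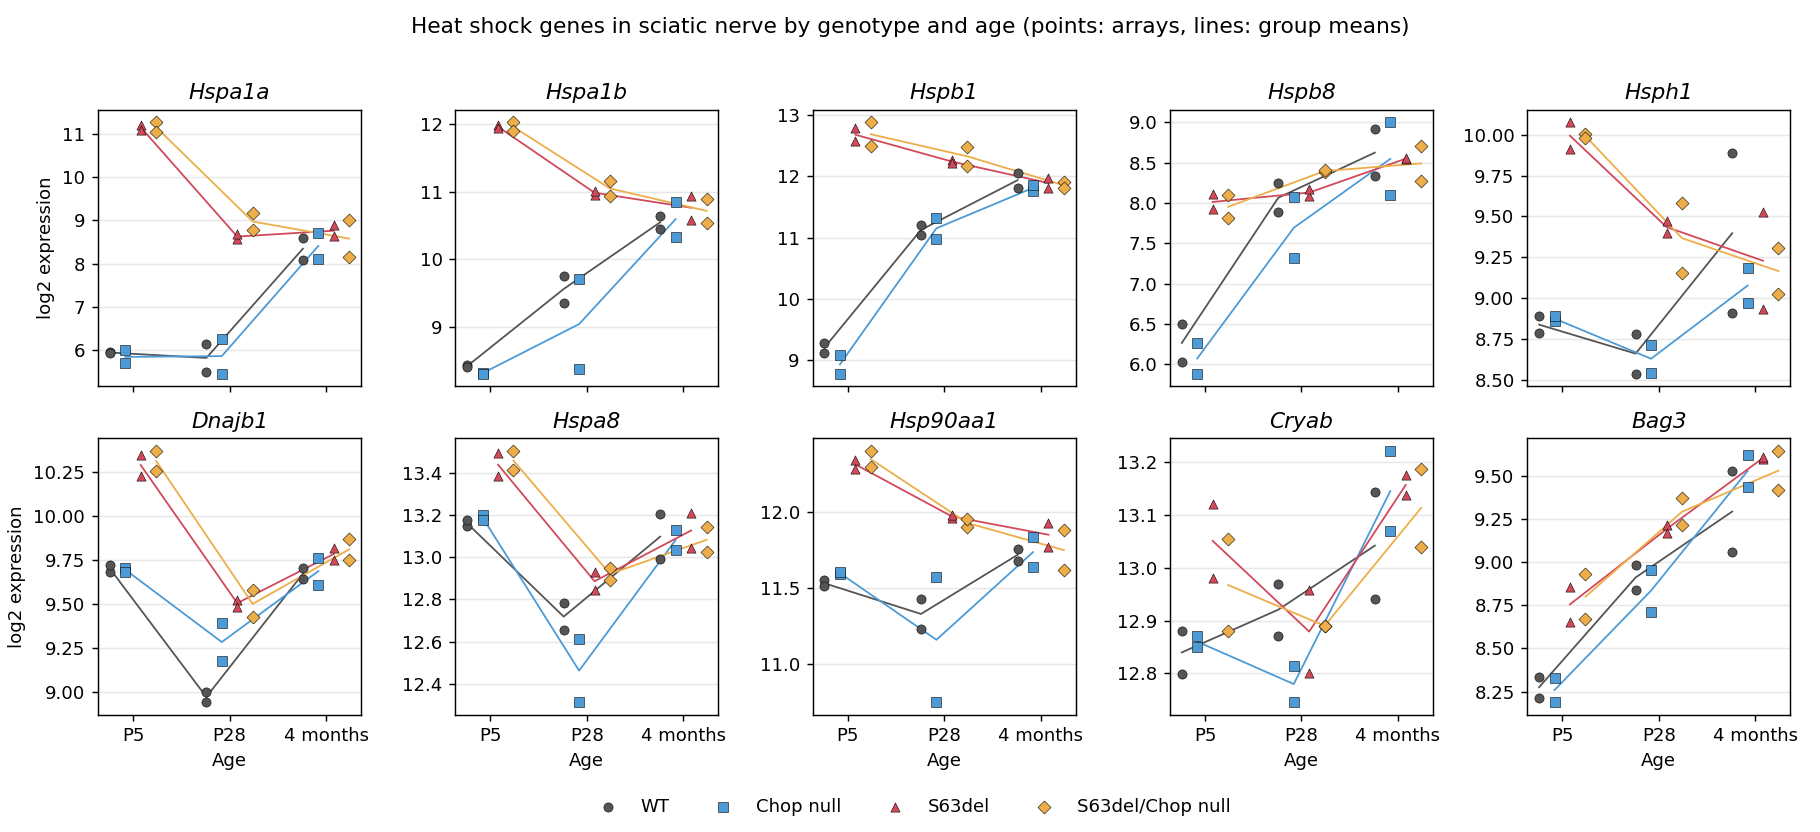
Log2 expression (vertical axis, a separate scale in each panel) of the 10 heat shock genes by age (horizontal axis). Points are single arrays, 2 per group, lines join group means, and colour and shape give the genotype. The 4 mutant arrays of Hspa1a span 11.05 to 11.27 at P5, far above the non-mutant arrays at 5.69 to 5.99, and the genotypes come together at 4 months.

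At P28, near the peak of myelination, Hspa1a, Hspa1b and Hspb1 were still the members with the largest differences. Of the 10 genes 7 rose in S63del/Chop null against Chop null nerves (limma adjusted p under 0.05), when 17.8% of all genes were called and 9.77% were called higher. These 7 were Hspa1a, Hspa1b, Hspb1, Hsp90aa1, Hsph1, Hspa8 and Bag3. Both mutant arrays lay above both Chop null arrays for all 10 genes, against 23.3% of all genes. The members' median difference was 0.72, beside -0.02 over all genes.

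Hspa1a read 5.50 and 6.14 for WT, 6.26 and 5.46 for Chop null, 8.56 and 8.69 for S63del and 8.79 and 9.16 for S63del/Chop null nerves at P28. It was 3.12 ± 0.30 higher in S63del/Chop null than in Chop null nerves, 8.67-fold (limma adjusted p = 2.12e-05). The mutant arrays lay below their P5 values, and the non-mutant arrays overlapped theirs. Hspa1b read 9.36 and 9.76 for WT, 9.71 and 8.37 for Chop null, 10.96 and 11.01 for S63del and 10.94 and 11.15 for S63del/Chop null nerves. Its rise of 2.01 ± 0.29 (limma adjusted p = 0.000563) was set against Chop null arrays that lay more than a log2 unit apart. Hspb1 read 11.05 and 11.21 for WT, 10.98 and 11.32 for Chop null, 12.27 and 12.22 for S63del and 12.17 and 12.49 for S63del/Chop null nerves. It rose by 1.18 ± 0.16 (limma adjusted p = 0.000397), and here the non-mutant level had climbed towards the mutant one.

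Hspb8 read 7.88 and 8.25 for WT, 8.07 and 7.31 for Chop null, 8.08 and 8.17 for S63del and 8.39 and 8.41 for S63del/Chop null nerves. The difference of 0.70 ± 0.29 did not pass (limma adjusted p = 0.0918), and the S63del arrays lay within the WT range. Hsp90aa1 read 11.23 and 11.43 for WT, 11.57 and 10.75 for Chop null, 11.96 and 11.98 for S63del and 11.90 and 11.95 for S63del/Chop null nerves. It rose by 0.77 ± 0.18 (limma adjusted p = 0.0117), again against a wide Chop null pair. Hsph1 read 8.54 and 8.78 for WT, 8.71 and 8.54 for Chop null, 9.47 and 9.40 for S63del and 9.15 and 9.58 for S63del/Chop null nerves. It rose by 0.74 ± 0.24 (limma adjusted p = 0.0454).

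Hspa8 read 12.65 and 12.78 for WT, 12.61 and 12.31 for Chop null, 12.93 and 12.85 for S63del and 12.95 and 12.89 for S63del/Chop null nerves. Its rise was 0.46 ± 0.12 (limma adjusted p = 0.0165). Bag3 read 8.84 and 8.98 for WT, 8.96 and 8.71 for Chop null, 9.22 and 9.17 for S63del and 9.21 and 9.37 for S63del/Chop null nerves. A rise of 0.46 ± 0.15 passed narrowly (limma adjusted p = 0.0481). Dnajb1 read 8.94 and 9.002 for WT, 9.18 and 9.39 for Chop null, 9.52 and 9.48 for S63del and 9.42 and 9.58 for S63del/Chop null nerves. The difference of 0.22 ± 0.11 against Chop null did not pass (limma adjusted p = 0.15), while S63del stood 0.53 ± 0.11 above WT, given without a test. Cryab read 12.97 and 12.87 for WT, 12.81 and 12.75 for Chop null, 12.96 and 12.80 for S63del and 12.89 and 12.89 for S63del/Chop null nerves. Cryab differed by 0.11 ± 0.11 with a limma adjusted p of 0.482, and the ranges of WT and S63del nerves overlapped.

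The P28 count depended on the settings of the fit and on single arrays of both groups, and the Chop null pair was uneven. Of the 7 genes, only Hspa1a kept its call under all 13 other settings. Fitted on the 8 arrays of P28 alone, 2 of the 10 genes were called (and 84 of all genes, against 2209), and with array weights, which gave the Chop null pair the lowest weight, 1 of the 10 (and 14 of all genes). Leaving out Chop null replicate 2 or either S63del/Chop null array lowered the count, among the members and among all genes. Leaving out Chop null replicate 1 raised both. Each of these fits left a group of 1 array. Without Chop null replicate 2 the Hspa1b difference was 1.34 and that of Hsp90aa1 0.36, and without replicate 1 the Hspb8 difference was 1.08.

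At 4 months the genotypes came together, and none of the 10 genes was called in S63del/Chop null against Chop null nerves (limma). No member had an unadjusted p under 0.05, the smallest being 0.258, and 0 of 12393 genes were called in all (0%). The members' median difference was 0.03, beside 0.01 over all genes. Hspa1a read 8.60 and 8.10 for WT, 8.72 and 8.10 for Chop null, 8.90 and 8.63 for S63del and 8.16 and 9.004 for S63del/Chop null nerves. Every group held an array within the range of another. The S63del/Chop null difference for Hspa1a was 0.17 ± 0.30, with a 95% interval of -0.47 to 0.81. Hspa1b read 10.64 and 10.45 for WT, 10.85 and 10.33 for Chop null, 10.94 and 10.58 for S63del and 10.54 and 10.89 for S63del/Chop null nerves. Hspb1 read 12.06 and 11.82 for WT, 11.77 and 11.86 for Chop null, 11.97 and 11.81 for S63del and 11.90 and 11.81 for S63del/Chop null nerves. The Hspb1 interval was the narrower, -0.30 to 0.38. The 95% intervals of all 10 members lay within -0.66 to 0.81.

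Hspb8 at 4 months read 8.91 and 8.33 for WT, 8.09 and 8.998 for Chop null, 8.54 and 8.55 for S63del and 8.70 and 8.28 for S63del/Chop null nerves. Hsph1 read 9.89 and 8.91 for WT, 9.19 and 8.97 for Chop null, 9.52 and 8.93 for S63del and 9.31 and 9.02 for S63del/Chop null nerves. Every group of either gene overlapped another. The remaining 5 genes had ranges over the 8 arrays of 9.61 to 9.87 for Dnajb1, 12.99 to 13.21 for Hspa8, 11.62 to 11.93 for Hsp90aa1, 12.94 to 13.22 for Cryab and 9.06 to 9.64 for Bag3.

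The change of the mutant difference with age was tested in the Chop null background, whose arrays the S63del against WT difference did not use. From P5 to P28 the difference shrank for Hspb1 and Hspa1a, 2 of the 10 genes, when 0.742% of all genes were called and 0.315% were called lower (limma). It fell by 2.59 ± 0.23 on the log2 scale for Hspb1 (adjusted p = 2.37e-05, limma) and by 2.20 ± 0.43 for Hspa1a (adjusted p = 0.0215, limma). For Hspa1b the change was -1.64 ± 0.41 (adjusted p = 0.0756, limma) and did not pass. From P5 to 4 months it shrank for 4 genes, Hspa1a, Hspa1b, Hspb1 and Hspb8, when 0.549% of all genes were called and 0.299% were called lower. The changes were -5.15 ± 0.43 for Hspa1a, -3.53 ± 0.41 for Hspa1b, -3.72 ± 0.23 for Hspb1 and -1.93 ± 0.41 for Hspb8, with limma adjusted p-values of 3.53e-06, 0.000225, 1.34e-07 and 0.0403. All 10 members had a smaller difference at 4 months than at P5. The Hspa1a change at P28 did not pass with 1 array of P5, or 1 S63del/Chop null array of P28, left out (6 cases), nor with replicate number as a block, with array weights or after a further quantile normalization, and its adjusted p reached 0.252 over all settings (limma). Without Chop null replicate 1 of P28 the count was 4. The Hspb8 change at 4 months was lost in 7 of the 8 cases with 1 array left out (adjusted p up to 0.252, limma), Chop null replicate 1 of 4 months being the exception. It was also lost with replicate number as a block (adjusted p = 0.112, limma) and in the fit of every probe set by itself (0.0541).

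The genotypes met at 4 months at a level above that of non-mutant nerves at P5 and below that of mutant nerves at P5 for the inducible HSP70 genes and Hspb1. In WT nerves 5 of the 10 genes were higher at 4 months than at P5 (limma adjusted p under 0.05) and none was lower, when 36.8% of all genes were called and 21.3% were called higher. Hspb1 rose by 2.74 ± 0.16, Hspa1a by 2.40 ± 0.30, Hspb8 by 2.36 ± 0.29, Hspa1b by 2.13 ± 0.29 and Bag3 by 1.02 ± 0.15, with limma adjusted p-values from 7.81e-10 to 4.21e-05. In Chop null nerves the same 5 genes rose, when 32.9% of all genes were called and 18.6% were called higher, by 2.89, 2.57, 2.47, 2.28 and 1.27 in that order. The steps fell at different ages. Hspa1a did not pass at P28 (-0.13 ± 0.30 in WT, 0.02 ± 0.30 in Chop null, limma adjusted p = 0.734 and 0.959) and its mean at 4 months was 2.53 above that at P28 in WT and 2.55 above it in Chop null nerves, given without a test. Hspb1 had already risen by 1.93 ± 0.16 in WT and 2.23 ± 0.16 in Chop null nerves at P28, and Hspb8 by 1.80 ± 0.29 and 1.62 ± 0.29. The size of the Hspb8 rise depended on the probe set. Beside the brightest, the others gave 0.11 and 1.45 in WT at P28, 0.38 and 0.61 in WT at 4 months, 0.75 and 1.72 in Chop null at P28 and 0.79 and 1.52 in Chop null at 4 months. The first of them passed at neither age in WT nerves, in the limma fit of all probe sets. With the mean of the 3 probe sets the Hspb8 rise in WT was 1.12 at P28 and 1.11 at 4 months, and still passed (limma).

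At P28 in WT nerves 4 genes were higher than at P5 (Hspa1b, Hspb1, Hspb8 and Bag3) and 2 were lower, when 59.5% of all genes were called, 31.3% higher and 28.2% lower. The 2 lower genes were Dnajb1, at -0.73 ± 0.11, and Hspa8, at -0.44 ± 0.12 (limma adjusted p = 2.60e-05 and 0.00385). In Chop null nerves the same 4 were higher and 3 were lower, Hsp90aa1 (-0.44 ± 0.18) joining Dnajb1 (-0.41 ± 0.11) and Hspa8 (-0.73 ± 0.12), when 68.4% of all genes were called, 37.8% higher and 30.7% lower. Hsp90aa1 and Hspa1b in Chop null nerves depended on single arrays: without Chop null replicate 2 of P28 the Hsp90aa1 change was -0.03, and without replicate 1 the Hspa1b change was 0.06, neither past the threshold. Dnajb1 in Chop null nerves was lost with array weights and after a further quantile normalization (adjusted p up to 0.343, limma), and Bag3 with array weights (0.0904). By their brightest probe sets Dnajb1 and Hspa8 had their lowest means at P28 in all 4 genotypes and no change from P5 that passed at 4 months in non-mutant nerves. The other Dnajb1 probe set was lowest at 4 months in 3 of the 4 genotypes and was lower than at P5 in WT nerves at 4 months, at -0.72 ± 0.18 (adjusted p = 0.00454, limma over all probe sets). The mean of both Dnajb1 probe sets was called there too (-0.37, adjusted p = 0.0113, limma). The third probe set of Hsp90aa1 was likewise lower at 4 months, at -0.98 ± 0.17 in WT and -0.69 ± 0.17 in Chop null nerves (adjusted p = 0.000148 and 0.00347, limma), while its other 2 were not called. Calls in 6 and 5 of the 10 genes in WT and in 7 and 5 in Chop null nerves are not far from those shares of all genes, and are no result about the members as a set. Skeletal muscle markers, 12 genes of which all were measured, had mean log2 levels of 7.99 to 10.37 at P5, 9.76 to 11.81 at P28 and 6.48 to 10.57 at 4 months in non-mutant arrays, and muscle also holds Cryab, Hspb1 and Hspb8. The mean level of 4 adipocyte markers in non-mutant arrays was 7.73 to 8.41 at P5, 10.77 to 11.04 at P28 and 11.04 to 11.62 at 4 months, and that of 6 fibroblast and perineurium markers 11.70 to 11.80, 12.0004 to 12.34 and 12.36 to 12.41. Both lists were thus higher at the later ages than at P5 in every non-mutant array. The part of muscle, fat and connective tissue in these age changes was not tested.

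Removing Chop changed no heat shock gene of the mutant nerve by an amount that passed the test. Between S63del/Chop null and S63del nerves 0 of the 10 genes were called at each age (limma), and none had an unadjusted p under 0.05. The share of all genes called was 0.0161% at P5, 0.00807% at P28 and 0.00807% at 4 months. This comparison shares its S63del arrays with the one that brought these genes to notice. At P5 the difference was 0.0022 ± 0.30 for Hspa1a, -0.0021 ± 0.29 for Hspa1b and 0.01 ± 0.16 for Hspb1. The 95% intervals of all 10 members at P5 lay between -0.67 and 0.64. Their width differed between genes and was least for Dnajb1 (-0.20 to 0.25), so they set no common limit of detection. For Hspa1a the interval was -0.63 to 0.64 at P5, -0.29 to 0.98 at P28 and -0.82 to 0.45 at 4 months. The largest member difference at P28 was that of Hspa1a, 0.35 ± 0.30.

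Loss of Chop alone likewise gave no call among the members. In Chop null against WT nerves, which share the WT arrays, 0 of 10 were called at each age (limma), and 0%, 0% and 0.00807% of all genes at P5, P28 and 4 months. By their brightest probe sets at P28 Dnajb1 was 0.31 ± 0.11 higher (unadjusted p = 0.00924, adjusted p = 0.332, limma) and Hspa8 was -0.26 ± 0.12 (unadjusted p = 0.042, adjusted p = 0.482, limma). The other Dnajb1 probe set went the other way, with means of 8.09 in Chop null and 8.22 in WT nerves. The other Hspa8 probe sets had Chop null means of 12.51, 11.14 and 5.41, beside WT means of 12.53, 11.21 and 5.43. The fits below with 1 array left out also used the brightest probe sets. No member had an unadjusted p under 0.05 at P5 or at 4 months. Without Chop null replicate 1 of P28, 4 members were called, Hspa1b at -1.19, Dnajb1 at 0.42, Hspa8 at -0.41 and Hsp90aa1 at -0.58, and without replicate 2 none. The mutant difference in the Chop null background minus that in the WT background, which holds the S63del against WT difference, gave 0 calls among the members at each age (0% of all genes at each age, limma). Its smallest unadjusted p among members was 0.236 at P5, 0.0504 at P28 and 0.172 at 4 months. For Hspa1a it was 0.10 ± 0.43 at P5 and 0.31 ± 0.43 at P28. At P28, 2 members (Hspa1b and Hsp90aa1) passed without Chop null replicate 1, with values of 1.25 and 0.54.

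For a description of the difference that led to the choice of these genes, S63del stood above WT nerves at P5 by 1.75 for Hspb8, 1.16 for Hsph1, 0.78 for Hsp90aa1, 0.59 for Dnajb1, 0.48 for Bag3, 0.28 for Hspa8 and 0.21 for Cryab on the log2 scale. At P28 the same difference was 1.43 for Hspa1b, 1.12 for Hspb1, 0.77 for Hsph1, 0.64 for Hsp90aa1, 0.53 for Dnajb1 and 0.06 for Hspb8. At 4 months it lay between -0.17 (Hsph1) and 0.42 (Hspa1a). Of all genes, 2.4% were called at P5, 4.62% at P28 and 0% at 4 months, and nothing about the members is read from these shares.

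**Figure D2:**
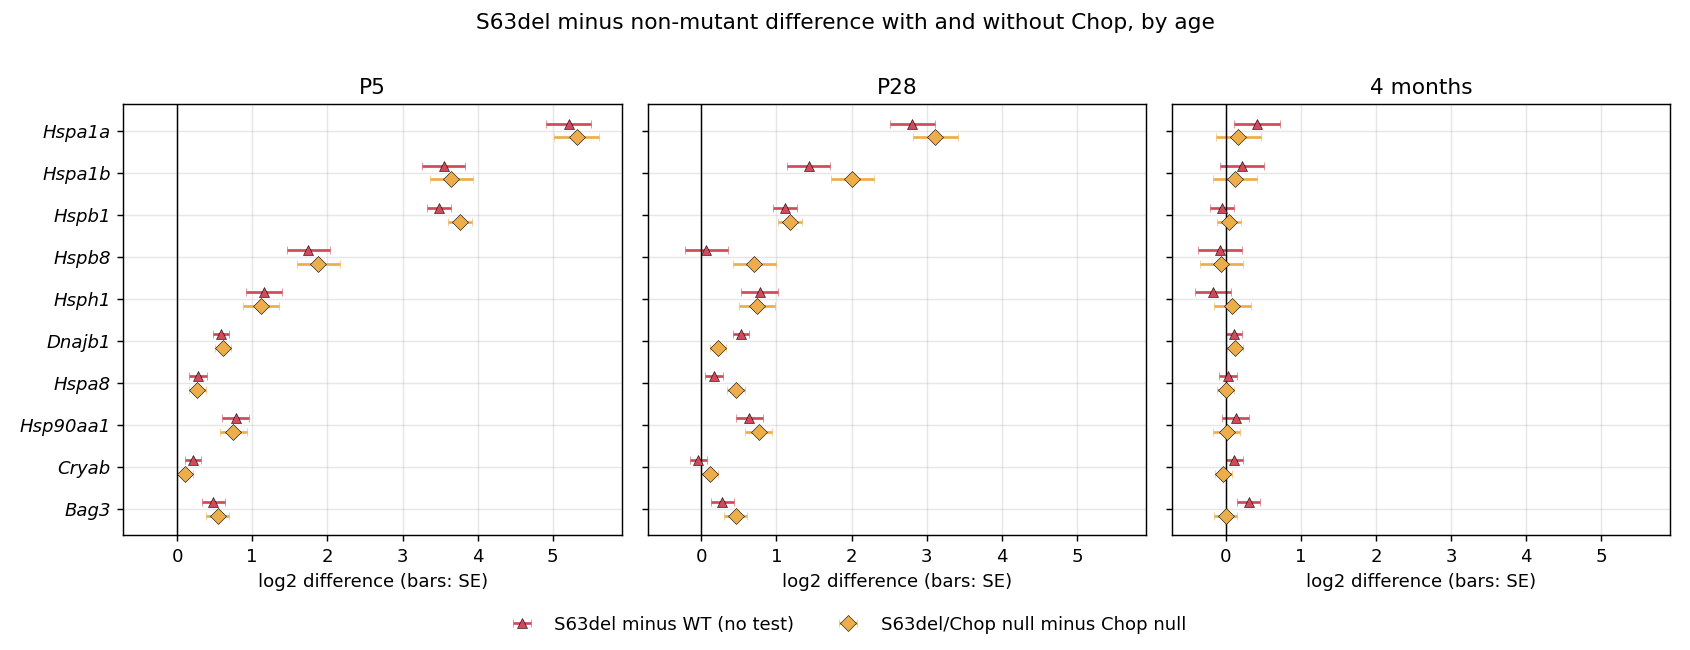
Log2 difference between mutant and non-mutant nerves (horizontal axis) for each of the 10 genes (rows) at the 3 ages (panels). Triangles give S63del minus WT, with no test, diamonds S63del/Chop null minus Chop null, and bars the SE from the limma fit. At P5 Hspa1a lies at 5.21 and 5.32, and at 4 months at 0.42 and 0.17.

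The 24 probe sets of the 10 genes agreed in sign with the brightest one of each gene at P5, and in all but 2 cases at P28. Each was fitted among all 20380 probe sets of a single symbol, of which 1.35% were called in S63del/Chop null against Chop null nerves at P5, 15.5% at P28 and 0% at 4 months (limma). At P5 all 24 member probe sets had differences above 0 and 13 were called, at P28 22 were above 0 and 11 were called, and at 4 months 15 were above 0 and 0 were called. The 3 probe sets of Hspa1b gave 3.65, 4.02 and 4.25 at P5, and the 2 of Hspb1 gave 3.76 and 3.95. For Hspb8 they disagreed at P28, with 0.70, -0.04 and 0.03, after 1.88, 0.80 and 1.46 at P5. The 4 probe sets of Hspa8 gave 0.27, 0.20, 0.27 and 0.42 at P5, with no call, and 0.46, 0.29, 0.46 and 0.58 at P28, with 1 call. Hsph1 gave 0.74 and 0.93 at P28, where its brighter probe set missed the threshold in this larger fit (adjusted p = 0.0503, limma). The brightest Hspa8 probe set and the next one (0.29 at P28) bear the maker's suffix for probes that may bind other transcripts. The same suffix is on the second probe set of Hspa1b (4.02 at P5), of Hspb1 (3.95) and of Hspb8 (0.80). The 3 of Cryab stayed between -0.33 and 0.16 at both ages, with no call.

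**Figure D3:**
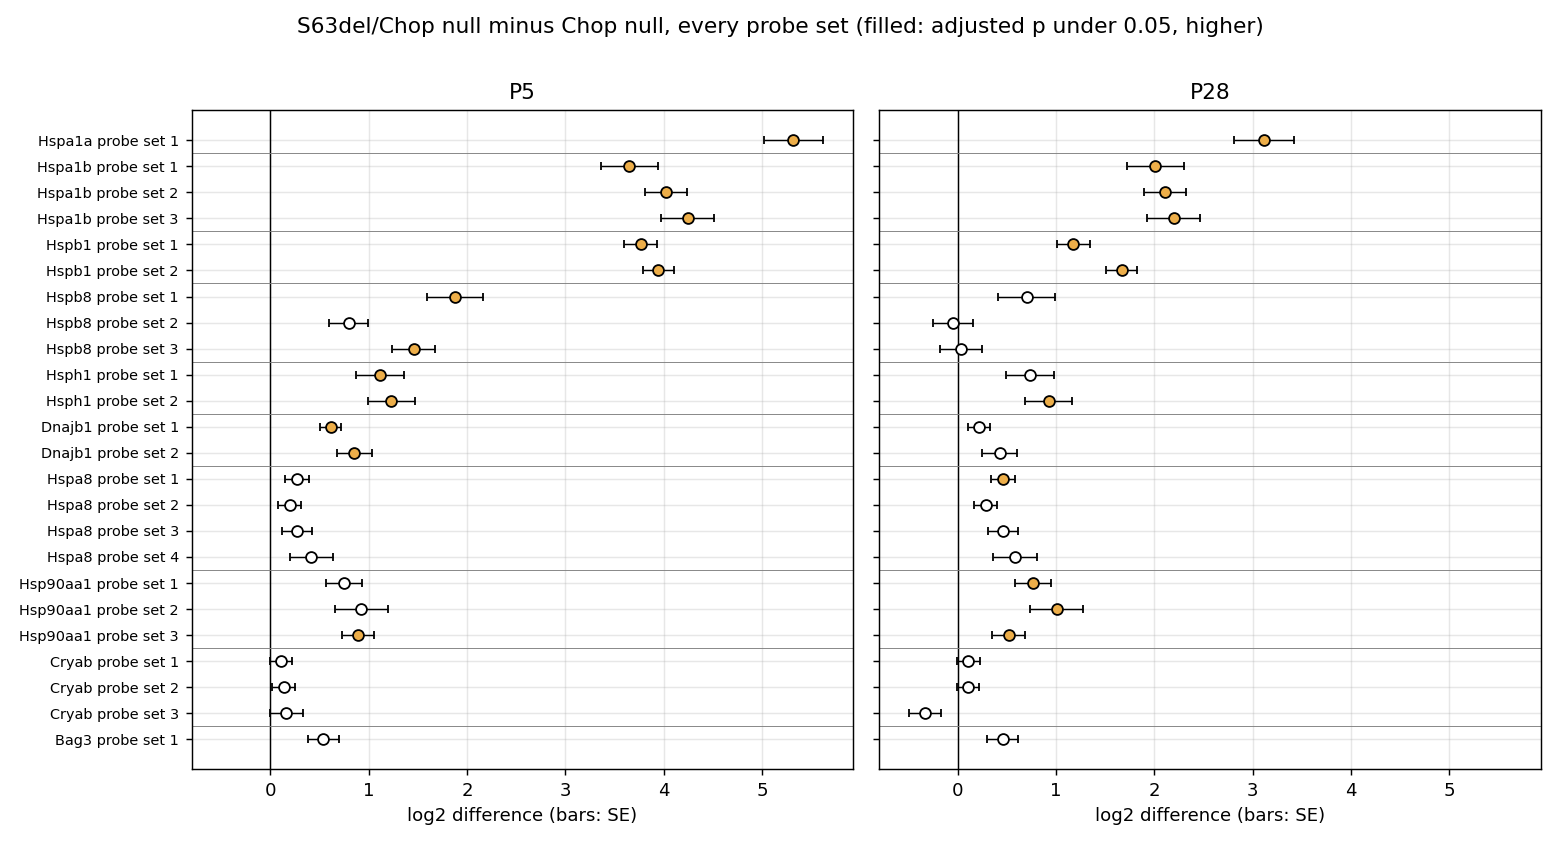
Log2 difference of S63del/Chop null minus Chop null nerves (horizontal axis) for each of the 24 probe sets (rows), at P5 and P28, with the SE as bars. Filled points passed an adjusted p of 0.05 in the limma fit of all 20380 probe sets, the first probe set of a gene being the brightest. All 24 points at P5 lie right of 0, and those of Hspb8 at P28 lie at 0.70, -0.04 and 0.03.

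Among other chaperone genes, nearly all calls at P5 came from the ER and the mitochondria. S63del/Chop null was tested against Chop null nerves at P5 (limma, adjusted over all genes). The test was passed by 0 of 3 genes of the HSF list, 0 of 6 other HSP70 family genes and 0 of 8 other J-domain genes. It was passed by 0 of 7 HSP70 partners, 0 of 8 TRiC chaperonin subunits and 0 of 4 other small heat shock genes. The HSF list held Hsf2, Hsf4 and Hsbp1, and Hsbp1 codes for a binding protein of HSF1, not for an HSF. Hsf2 group means were low, at 3.01 to 3.28. Of 8 HSP90 partners 1 rose, Stip1, which hands clients from HSP70 to HSP90, by 0.51 ± 0.11 (adjusted p = 0.0261, limma). Among 4 mitochondrial chaperones 2 rose, Hspd1 (HSP60) by 0.59 ± 0.12 and its lid Hspe1 (HSP10) by 0.58 ± 0.14. Among 12 ER chaperones 6 rose and none fell, when 0.904% of all genes were called higher and 0.88% lower. The largest ER rise was that of Sdf2l1, 2.20 ± 0.20, followed by Creld2, 1.59 ± 0.22, and Pdia4, 0.93 ± 0.12. Hspa5 (BiP), the main ER HSP70, was 0.62 ± 0.21 higher with an adjusted p of 0.258 (limma). List medians at P5 were 0.63 for ER and 0.44 for mitochondrial chaperones, 0.16 for TRiC and -0.04 for the HSF list. The median was 0.93 for the 10 heat shock genes and -0.0012 for all genes.

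In S63del/Chop null against Chop null nerves the ER list had a larger median at P28 than at P5, and the heat shock genes a smaller one. In S63del against WT nerves, given without a test, the ER median was 0.76 at P5 and 0.68 at P28. The change from P5 to P28 in the Chop null background was called for 0 of 12 ER chaperones (limma). Of all genes, 0.742% were called for that change. Against Chop null nerves, 9 of 12 ER chaperones rose at P28 in S63del/Chop null nerves, Hspa5 by 1.32 ± 0.21 and Sdf2l1 by 1.84 ± 0.20. The median of the list was 0.88. Hspd1 (0.54 ± 0.12) and Hspe1 (0.57 ± 0.14) rose again, as did Stip1 (0.53 ± 0.11), and with it the HSP90 activator Ahsa1 (0.35 ± 0.11). The HSP110 gene Hspa4 (0.64 ± 0.19) and Hspa14 (0.34 ± 0.11) rose and Hspa4l (-0.78 ± 0.15) fell. Among the HSP70 partners St13 (0.44 ± 0.13) rose and the ubiquitin ligase Stub1 (-0.48 ± 0.13) fell. Of the TRiC subunits Cct3, Cct6a, Cct7 and Cct8 rose, by 0.33 to 0.72. The HSF list and the J-domain genes had 0 of 3 and 0 of 8 called. These calls stand against 17.8% of all genes and share the uneven Chop null pair with the P28 count of the members. Hsf1 is not analysed here. At 4 months none of the genes of these lists was called (limma), nor was any gene.

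In S63del/Chop null against Chop null nerves 3 of the 4 other small heat shock genes fell at P28, when 8.05% of all genes were called lower. Hspb7 fell by 1.35 ± 0.28, Hspb2 by 0.37 ± 0.12 and Cryaa by 0.45 ± 0.14 on the log2 scale (adjusted p = 0.00598, 0.0406 and 0.0404, limma), while Hspb3 was -0.10 ± 0.28. All 3 falls were set against the uneven Chop null pair. At P28 the Hspb7 mean was 6.91 in Chop null and 6.03 in WT nerves. Group means of Cryaa were low, at 4.94 to 5.65. Hspb7 and Hspb2 are known as genes of heart and skeletal muscle. Of 12 skeletal muscle markers, 0 were higher and 1 was called lower in the same comparison, Myh2 (-3.14 ± 0.86), with a median of -0.95. Their mean log2 level ranged from 9.76 to 11.81 in non-mutant and 7.78 to 11.18 in mutant arrays at P28, and Myh2 ranged from 4.21 to 8.66 over all 24 arrays. The part of muscle in the small heat shock genes was not tested.

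**Figure D4:**
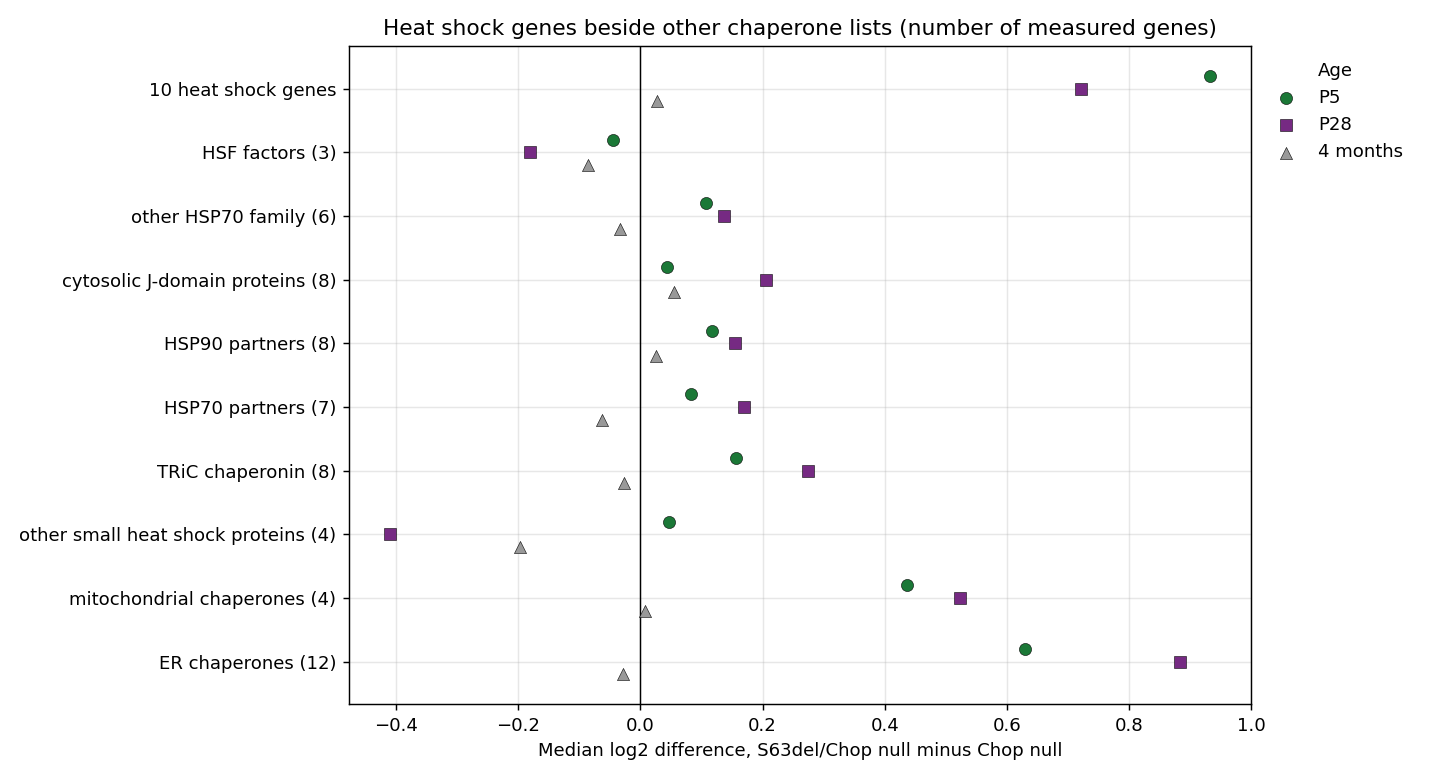
Median log2 difference of S63del/Chop null minus Chop null nerves (horizontal axis) for the 10 heat shock genes and 9 other chaperone lists (rows, with the number of genes measured). Circles are P5, squares P28 and triangles 4 months. The heat shock genes lie at 0.93 at P5 and 0.72 at P28, the ER chaperones at 0.63 and 0.88, and all lists lie near 0 at 4 months, the lowest being the other small heat shock genes at -0.20.

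The mean levels of immediate early genes and of markers of several cell types differed between mutant and non-mutant nerves at P5 as well. The mean log2 level of 10 immediate early genes, which respond within minutes to stress or injury, was 7.50 to 7.70 in non-mutant and 8.05 to 8.26 in mutant arrays at P5, 7.60 to 7.92 and 7.99 to 8.42 at P28, and 7.87 to 8.09 and 7.95 to 8.17 at 4 months. The ranges were apart at the first 2 ages and overlapped at 4 months. In S63del/Chop null against Chop null nerves 2 of the 10 rose at P5 and 4 at P28 (limma), with medians of 0.23 and 0.15. Of all genes, 0.904% were called higher at P5 and 9.77% at P28, and the P28 calls share the uneven Chop null pair. Those that rose were Fos (0.92 ± 0.21) and Atf3 (1.68 ± 0.20) at P5. At P28 they were Fos (1.62 ± 0.21), Egr1 (1.01 ± 0.32), Junb (0.96 ± 0.32) and Atf3 (1.25 ± 0.20). All were named after their values were seen. Markers of myelinating Schwann cells (Mbp, Pmp22, Mag, Sox10 and S100b) had a mean level of 12.20 to 12.28 in non-mutant and 11.70 to 11.85 in mutant arrays at P5. Of the 5, 2 fell in S63del/Chop null nerves, Mbp (-0.44 ± 0.09) and S100b (-0.93 ± 0.12), when 0.88% of all genes were called lower. Endothelial markers were at 7.29 to 7.61 against 6.95 to 7.15, and fibroblast and perineurium markers at 11.70 to 11.80 against 11.52 to 11.68. Erythroid markers, of which 3 of 5 were measured, were at 7.02 to 7.82 against 6.41 to 6.79, with the globin gene Hba-a1 at only 3.49 to 4.22 over all 24 arrays. At P5, 0 of 5 endothelial and 0 of 6 fibroblast and perineurium markers were called in S63del/Chop null against Chop null nerves (limma). Of 3 erythroid markers 1 was called lower, Slc4a1 (-1.61 ± 0.36). Macrophage markers overlapped at P5 (8.62 to 8.88 and 8.68 to 8.85). So did skeletal muscle markers (7.99 to 10.37 and 7.54 to 9.28) and adipocyte markers (7.73 to 8.41 and 7.50 to 8.07). The part of these lists in the heat shock result was not tested.

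Among the 12392 other genes, Hspa1a had its nearest patterns over the 12 group means in Atf3 (Pearson r = 0.97), Blvrb (0.96), Hsph1 (0.96), Cstb (0.96) and Hspa1b (0.96), with Srxn1, Fbxo2 and Hsp90aa1 at 0.94 each. These are descriptions over groups that share genotypes and ages. Atf3 is a stress-induced transcription factor and 1 of the 10 immediate early genes above, Blvrb a biliverdin reductase, Cstb an inhibitor of cathepsins and Srxn1 sulfiredoxin, which repairs peroxiredoxins. At P5 the S63del/Chop null minus Chop null difference was 1.68 ± 0.20 for Atf3, 1.62 ± 0.27 for Srxn1 and 3.33 ± 0.18 for Fbxo2, given without a test, since a pattern like that of Hspa1a on these same arrays chose these genes. The members differed in how closely they followed Hspa1a: r was 0.82 for Hspb1, 0.78 for Dnajb1, 0.65 for Hspa8, 0.55 for Hspb8, 0.54 for Cryab and 0.38 for Bag3. By their brightest probe sets, Hspb8, Cryab and Bag3 had their highest group means at 4 months, and the other 7 at P5. Another Hspb8 probe set was highest at P28, at 7.50 in WT nerves, and read 6.66 in WT nerves at 4 months.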

How the data were processed

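RNA from sciatic nerve was hybridised to Affymetrix arrays, 24 arrays in 12 groups of 2. The file the authors deposited holds 1 log2 value per probe set and array (the scale was read from the values), and the software, background correction and normalization behind it are not stated in the sources used here. Of 22690 probe sets, 20380 had a single gene symbol in the platform annotation, 691 several and 1555 none, and 64 were controls. Symbols were updated by gene ID for 20351 probe sets.

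For each of 12393 genes the probe set with the highest mean over all arrays was used. Group means were fitted over all 24 arrays (12 residual degrees of freedom) with limma 3.58.1 in R 4.3.3, with lmFit, contrasts and eBayes. P-values were adjusted by Benjamini-Hochberg over all genes, and a gene was called at an adjusted p under 0.05. Errors are SE of the fitted difference. The fit was tested on simulated data. Log2 values carry no counts, so depth is unknown, and 2 arrays per group limit the precision. No detection calls were used, and a fold is understated where the lower value is near background.

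The members and gene lists were chosen with earlier results of these data known, and S63del against WT was therefore not tested. The genes named are the 10 members, up to 4 of each related list by p at P5 in S63del/Chop null against Chop null nerves, Hspa5, Ddit3 and the 5 other genes nearest to Hspa1a. St13, Cct6a and Cct8 were named after their values were seen. Alternatives were another probe set rule, each probe set by itself, further quantile normalization, a filter at the 40th percentile, an intensity trend, array weights, the arrays of 1 age alone, a replicate block, leaving out 2 arrays that stand apart, and leaving out each array. Samples were grouped by the labels.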

Additional observations from a re-analysis of the deposited data

Results flagged for a closer look

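In 6 cases the mutant difference in the Chop null background changed with age by a test of that change (limma). From P5 to P28 it changed by -2.20 for Hspa1a and -2.59 for Hspb1 on the log2 scale. From P5 to 4 months it changed by -5.15 for Hspa1a, -3.53 for Hspa1b, -3.72 for Hspb1 and -1.93 for Hspb8. All 6 changes run towards a smaller difference at the later age. With 2 arrays per group, single arrays could not be checked against the rest of their group.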

How the results depend on the processing

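No called value changed sign. In S63del/Chop null against Chop null nerves at P28 the count of called members was 7, beside 2209 of all genes. On the 8 arrays of that age alone it was 2 (84 of all genes), and with array weights 1 (14 of all genes). Leaving out Chop null replicate 2 of P28 and WT replicate 1 of 4 months lowered both counts too. The change of that difference from P5 to P28 was called for 2 members, for 4 with the mean of a gene's probe sets, and for 1 with array weights. Chop null nerves at P28 against P5 had 7 calls, and 3 with array weights. With 1 array left out, counts ranged over 4 to 5 at P5 and 3 to 8 at P28 in S63del/Chop null against Chop null, 0 to 4 in Chop null against WT at P28, 0 to 2 for the difference between backgrounds at P28, 1 to 4 for the change to P28 and 3 to 4 for the change to 4 months. A group left with 1 array was assumed to vary like the others. The remaining counts stayed within 1.5 times of their value. The cause of these shifts was not tested.

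The labels number replicates 1 and 2 in every group. Same-numbered arrays of an age deviated from their group means with correlations of -0.48 to 0.35 over 18 pairs of groups, 9 of them above 0. The labels name no batch, and whether some of these arrays share one was not tested. With replicate number within age as a block, the change from P5 to P28 was called for 1 member in place of 2, the change from P5 to 4 months for 3 in place of 4 (Hspb8 was lost), and 6 members were called at P5 and 6 at P28 in S63del/Chop null against Chop null. With 2 arrays per group and values of unknown normalization, small differences could be missed. The intervals given differ by gene, and the smallest difference that could be called was not tested.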
